A study of Mus musculus with 2 samples.

Results

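The Id genes Id1, Id2, Id3 and Id4, together with Atoh8 and Bambi, were examined as immediate targets of signalling by bone morphogenetic proteins (BMPs) in cardiac neural crest cells. The members were fixed by symbol. Each was read from the transcript cluster (the group of array probes assigned to a transcript) annotated to that symbol alone, the brightest one where a gene had several. All 6 were measured, each by 1 cluster, among 19938 genes. The cells came from mouse embryonic hearts at E14.5 and were of genotype Adam19-/-, Wnt1-Cre, R26tdTomato/+ in the mutant sample and Adam19+/+, Wnt1-Cre, R26tdTomato/+ in the control sample. Both were on a C57BL/6 background. Adam19 encodes a membrane-anchored metalloprotease. Wnt1-Cre switches on the red reporter tdTomato in the neural crest and its descendants, and the reporter-positive cells were collected by sorting after collagenase digestion of the hearts. There was 1 array per genotype (n = 1), hence no replicate, no error across samples and no test, and every difference is that between 2 samples. The sources used here do not give the number of embryos that contributed to a sample.

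BMP ligands bind paired type I and type II receptors, which phosphorylate the transcription factors SMAD1, SMAD5 and SMAD9. These enter the nucleus with SMAD4 and switch on a small set of genes within a short time, the Id genes foremost among them. Id proteins carry a helix-loop-helix domain but no DNA-binding basic region, so they pair with E proteins and keep them off DNA. In mice, neural crest cells need BMP signalling for the outflow tract of the heart to be divided, and Id genes are commonly read as a gauge of the pathway.

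All 6 genes gave a signal in the upper part of the array in both samples, and none differed by 1.5-fold between them. Every member lay above the expression floor, a log2 signal of 8.01 that is the median of the genes' mean signals, on both arrays. Of the 6, 3 were higher and 3 lower in Adam19-/- cells, with differences from -0.08 to 0.14 on the log2 scale and a median of 0.00, which was -0.01 after quantile normalisation of the arrays. Among the 10122 genes above the floor, 65.2% were higher and 33.7% lower, and their median was 0.04. The count past 1.5-fold was 0 of 6, beside 0.237% of the genes above the floor, and the count past 2-fold was also 0, beside 0.0395%. In these bulk samples, fewer cells of a type and less RNA per cell cannot be told apart.

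Id2, long known from the neural crest of vertebrates, had the highest signal of the 6. Its log2 signal was 12.69 in Adam19-/- cells, against 12.76 in Adam19+/+ cells, or on the linear scale 6613 in Adam19-/- cells, against 6924 in Adam19+/+ cells. It ranked 185th of all 19938 genes on the Adam19-/- array and 161st on the Adam19+/+ array. The difference was -0.07, a change of -4.50%, and 54.3% of the genes above the floor had a larger difference in size.

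Id3 and Id1 are the members most often used as a readout of BMP SMAD activity, and both also mark endothelium. Id3 had a log2 signal of 11.48 in Adam19-/- cells, against 11.43 in Adam19+/+ cells, so it differed by 0.04 or 3.05%. Id1 had 11.11 in Adam19-/- cells, against 11.03 in Adam19+/+ cells, and differed by 0.08 or 5.60%. Both genes were marginally higher in the Adam19-/- sample. Id3 lay at the middle of all genes, since 51.1% of those above the floor had a lower difference, and for Id1 this share was 64.5%.

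Id4, which in mice is known chiefly from the nervous system, had the lowest signal of the 4 Id genes. Its log2 signal was 9.82 in Adam19-/- cells, against 9.90 in Adam19+/+ cells, at percentile 75.4 of genes on the Adam19-/- array and percentile 77.5 on the Adam19+/+ array. The difference of -0.08, a change of -5.51%, was the lowest of the 6, and 12.0% of the genes above the floor had a lower one. The Id genes therefore stood on both sides of zero, with Id1 and Id3 higher and Id2 and Id4 lower.

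Atoh8 encodes a basic helix-loop-helix transcription factor that responds to BMP SMADs in endothelial cells. Atoh8 reached 9.39 in Adam19-/- cells, against 9.43 in Adam19+/+ cells, and differed by -0.04 or -2.50%. The signal was the lowest of the 6 and lay at percentile 68.7 of genes on the Adam19-/- array, against 70.1 on the Adam19+/+ array. After quantile normalisation the difference of Atoh8 was -0.08 and that of Id4 -0.12, on the same side of zero.

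Bambi encodes a pseudoreceptor, a membrane protein that resembles a type I receptor without its kinase and dampens BMP and TGF-beta signalling. It showed the difference of greatest size among the 6, with a log2 signal of 10.99 in Adam19-/- cells, against 10.86 in Adam19+/+ cells. The difference was 0.14, or 1.10-fold, the 1942nd highest of the 10122 genes above the floor, and 24.7% of these genes had a larger difference in size. Bambi was thus higher in the Adam19-/- sample by an amount shared with many genes.

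**Figure D1:**
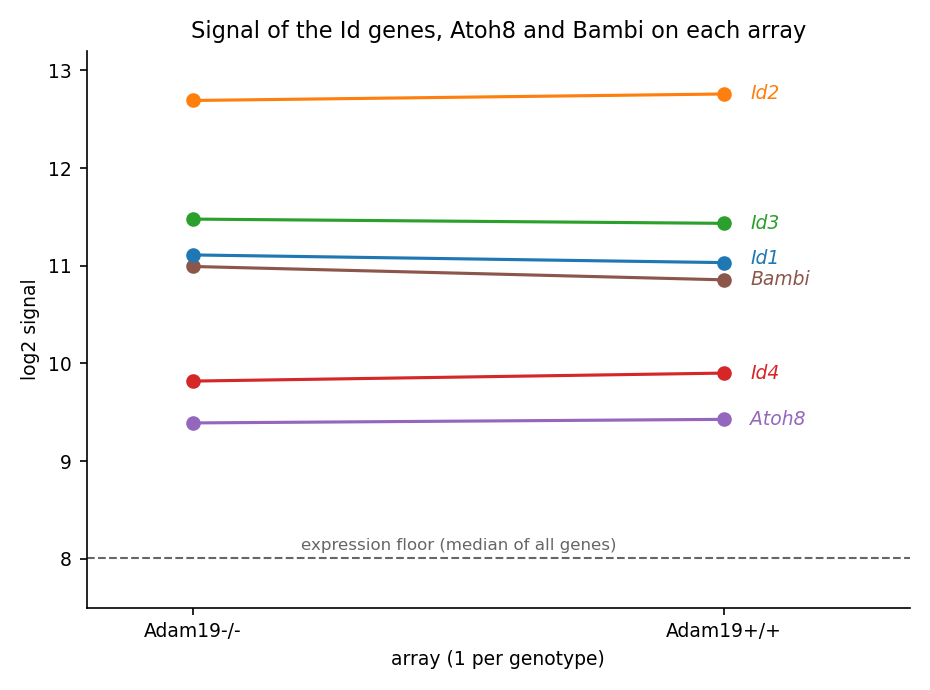
Log2 signal (vertical axis) of the 6 genes on the Adam19-/- array (left) and the Adam19+/+ array (right), 1 point per array, joined by a line for each gene. The lines are nearly level and do not cross, and all points lie above the floor of 8.01 (dashed).

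The order of the signals was the same on both arrays, namely Id2, Id3, Id1, Bambi, Id4 and Atoh8. With 1 array per genotype it cannot be said which neighbours in this order differ beyond their spread. The signal of a cluster depends on its probes as well as on the RNA, so neither the order nor the ranks compare amounts of transcript. In the plot of signals by array the line of each gene keeps its place among the 6.

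Several measures on the same arrays give a scale for these differences. The central 95% of differences of genes above the floor ran from -0.20 to 0.30, and all 6 members lay inside it. The middle range of genes, between the 25th and 75th percentiles, ran from -0.03 to 0.11, and Id1 and Id3 lay inside it, while Id2, Id4 and Atoh8 lay below it and Bambi above it. For the 6079 genes at least as bright as Atoh8, the central 95% ran from -0.18 to 0.25. Among 583 genes with at least 2 clusters above the floor, the differences given by the 2 brightest clusters lay a median of 0.05 apart, with a 95th percentile of 0.24. All 6 members differed by less than this 95th percentile, and 4 by more than the median. This gap holds no variation between embryos or sorts.

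**Figure D2:**
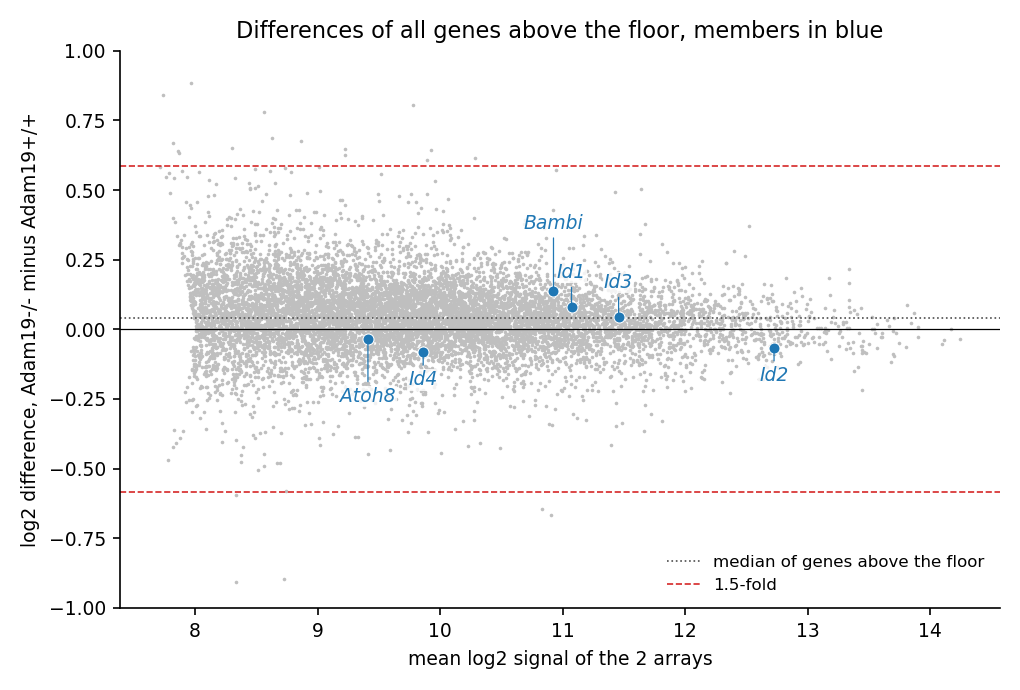
Log2 difference, Adam19-/- minus Adam19+/+ (vertical axis), against the mean log2 signal of both arrays, for the 10122 genes above the floor (grey) and the 6 members (blue). The members sit within the dense band of genes and between the dashed lines at 1.5-fold. There are 4 genes beyond the vertical axis.

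The genes nearest to each member in level, by the distance of their log2 signals over both arrays, were picked with the difference between arrays as part of the measure. They were Btg1 and Flna for Id2, Chd4 and Uqcc2 for Id3, and Ttyh2 and Mcmbp for Id1. For Id4 they were Ralgapa1 and Entpd7, for Atoh8 Tsc1 and Rapgef1, and for Bambi Arf6 and Abhd17c. The distances, rounded, were 0.01 to 0.02 log2 units. A likeness over 2 arrays says only that these genes had nearly the same pair of values.

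The sequences just before the start of Id2, Id3 and Id4 show which letters known from BMP SMAD sites these genes carry there. Each is the 250 bases before the start given by RefSeq for GRCm38.p6, on the strand of the gene, 5′ to 3′. Of the 6 members, 4 matched the promoter table by symbol, and Id1 and Bambi are named only. Capitals mark GGCGCC, the GC-rich sequence bound by SMAD1 and SMAD5, and GTCT, the SMAD-binding element, on either strand (AGAC on the other). Id2 lies at chr12:25096093-25096342 on the minus strand, Id3 at chr4:136143572-136143821 on the plus strand and Id4 at chr13:48260866-48261115 on the plus strand.
Id2: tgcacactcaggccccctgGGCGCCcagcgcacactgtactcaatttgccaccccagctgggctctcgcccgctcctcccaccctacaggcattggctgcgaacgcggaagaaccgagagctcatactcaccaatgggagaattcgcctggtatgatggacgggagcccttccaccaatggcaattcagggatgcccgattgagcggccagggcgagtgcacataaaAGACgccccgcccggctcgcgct
Id3: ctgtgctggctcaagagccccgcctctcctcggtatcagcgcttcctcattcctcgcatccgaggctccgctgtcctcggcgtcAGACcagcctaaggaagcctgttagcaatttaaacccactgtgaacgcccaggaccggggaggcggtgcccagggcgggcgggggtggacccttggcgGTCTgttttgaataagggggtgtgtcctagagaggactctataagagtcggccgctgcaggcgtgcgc
Id4: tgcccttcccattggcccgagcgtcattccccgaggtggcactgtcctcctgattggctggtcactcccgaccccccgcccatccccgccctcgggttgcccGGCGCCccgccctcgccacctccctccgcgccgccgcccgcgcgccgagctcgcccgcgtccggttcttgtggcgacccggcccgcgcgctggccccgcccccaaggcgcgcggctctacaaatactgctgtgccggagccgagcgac

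GGCGCC occurred 1 time each in the windows of Id2 and Id4 and was not found in those of Id3 and Atoh8. Of all 32851 windows of this length in the table, 9.59% held it. GTCT occurred 1 time in the window of Id2 and 2 times in that of Id3, with no match in those of Id4 and Atoh8, and 82.9% of all windows held it. The E-box CANNTG, the site of E proteins and their partners, occurred 1 time for Id2 and 2 times for Atoh8. It had no match for Id3 and Id4, and 66.2% of all windows held it. A share of 75.6% of bases in the Id4 window were G or C, against a median of 52.4% over all windows. For Id2 and Id3 this share was 62.8% each, and for Atoh8 63.2%. The shares of windows with a motif were taken over windows of any G and C content, so they are not matched to these windows. The matches are a description of these windows. Sites that lie further away are not covered, and the known BMP response element of mouse Id1 is such a distant site.

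Of 16 other genes held to be direct or likely targets of BMP SMADs, all measured, 13 were higher in Adam19-/- cells, 2 lower and 1 equal. Over all 19938 genes, with no floor, 51.7% were higher and 34.1% lower. The median difference of the 16 was 0.26, against 0.01 over all genes. After quantile normalisation 13 were higher and 3 lower, and the median was 0.24. Counting only the 13 targets above the floor, 11 were higher and 2 lower, or 10 and 3 after quantile normalisation. Their median was 0.26. Of all genes above the floor 65.2% were higher, and the median of all these genes was 0.04. Of the 16, 10 had a difference above that of Bambi, the highest of the 6, and 1 had a difference below that of Id4, the lowest. Nog and Msx1, both among these 10, lay below the floor on both arrays. The list was drawn up with earlier results of these data known, and its count and median describe these 2 arrays.

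Hand1, a basic helix-loop-helix factor of heart development, had a log2 signal of 9.53 in Adam19-/- cells, against 8.91 in Adam19+/+ cells. Its difference of 0.63 made it the single target 1.5-fold higher, as were 0.148% of the genes above the floor, and without it the median of the other 15 was 0.26. Gata2, a zinc-finger factor, was at 9.41 in Adam19-/- cells, against 8.95 in Adam19+/+ cells, and so differed by 0.46. Smad9, which is also one of the SMADs that carry the signal, and the homeobox gene Dlx5 differed by 0.38 and 0.36. Msx2, a homeobox target of BMP, was at 8.21 in Adam19-/- cells, against 7.94 in Adam19+/+ cells, which is below the floor, and so differed by 0.27. The T-box genes split, with Tbx2 at 0.26, Tbx20 at 0.24 and Tbx3 at 0.02. Hey1, which also responds to Notch, was lower, at 11.59 in Adam19-/- cells against 11.77 in Adam19+/+ cells, which is -0.18.

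The inhibitory SMADs are, like Bambi, feedback inhibitors that BMP induces. Smad6 was at 10.15 in Adam19-/- cells, against 9.88 in Adam19+/+ cells, and differed by 0.28. Smad7 was at 9.70 in Adam19-/- cells, against 9.73 in Adam19+/+ cells, and differed by -0.03. Of these 3 feedback genes Smad6 thus had the highest difference and Smad7 the lowest, with Bambi between them. Among all genes above the floor, 65.2% were higher and 33.7% lower. The list of 7 inhibitors within the cell, all above the floor, held 3 that were higher, 3 that were lower and 1 that was equal. After quantile normalisation 3 were higher and 4 lower. The median was 0.00, with Smurf2 and Skil at 0.05 each and Fkbp1a, which binds type I receptors, lowest at -0.10.

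The genes upstream of the Id genes gave no uniform picture. Of the 4 SMADs that carry the signal all were higher, with Smad1 at 0.01, Smad4 at 0.08, Smad5 at 0.13 and Smad9 at 0.38. All 4 lay above the floor, where 65.2% of genes were higher. After quantile normalisation 3 of the 4 were higher and 1 lower. Over all genes, with no floor, 51.7% were higher and 34.1% lower. Of 9 ligands measured, 6 were higher, 1 lower and 2 equal, and the median was 0.02. Among those above the floor, Bmp2 was at 0.34 and Bmp6 at 0.32, while Bmp4 was at 0.02 and Bmp7 at -0.07. Bmp4 had log2 signals of 11.20 in Adam19-/- cells, against 11.18 in Adam19+/+ cells. Of 11 receptors and co-receptors measured, 7 were higher and 4 lower, and their median was 0.08. Bmpr1b, above the floor on the Adam19-/- array only, was at 0.30, the co-receptors Eng and Rgma at 0.18 and 0.17, and the type II receptor Acvr2a at 0.16.

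Secreted modulators of BMP went both ways, with 6 of 11 measured higher, 5 lower and a median of 0.06. With no floor, 51.7% of all genes were higher and 34.1% lower. Bmper and the antagonist Grem1 were higher by 0.38 and 0.37, and Chrdl1, above the floor on the Adam19-/- array only, by 0.24. Sostdc1, an antagonist of BMP and Wnt, was at 11.00 in Adam19-/- cells, against 11.20 in Adam19+/+ cells, and so differed by -0.21. Of the E proteins with which Id proteins pair, Tcf3 was at 0.15, slightly above Bambi, while Tcf12 was at -0.01, or 0 after quantile normalisation, and Tcf4 at -0.03.

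**Figure D3:**
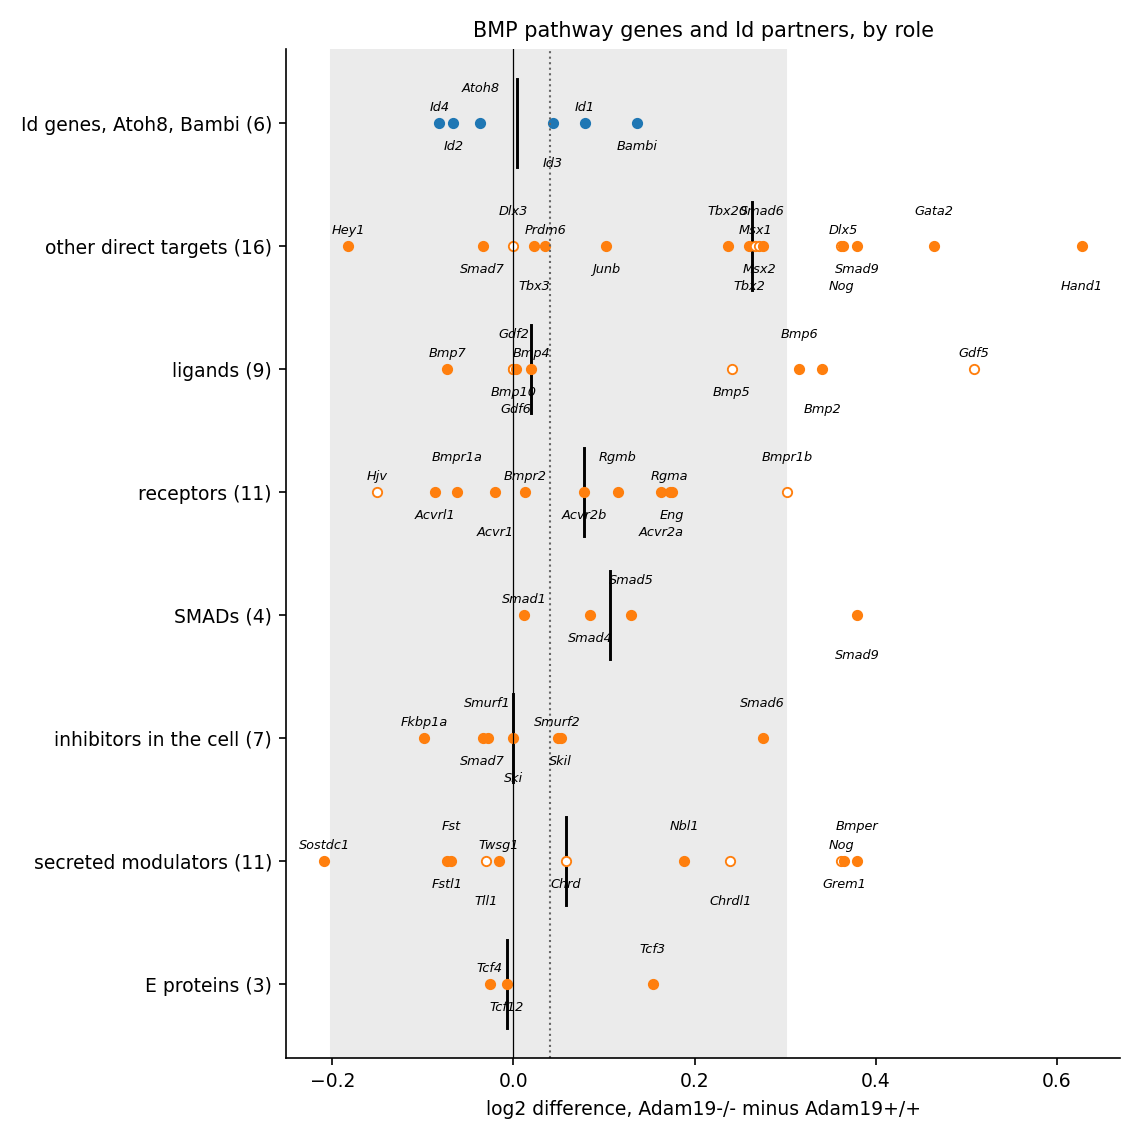
Log2 difference, Adam19-/- minus Adam19+/+ (horizontal axis), of all measured genes by role in BMP signalling, 1 point per gene (open where below the floor on at least 1 array), with the number of genes in brackets and the list median as a black bar. The grey band is the central 95% of genes above the floor, from -0.20 to 0.30, and the dotted line is their median of 0.04. The 6 members lie within -0.08 to 0.14, while 10 of the 16 other targets lie above Bambi.

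Markers checked the identity of the samples. Adam19 had a log2 signal of 9.77 in Adam19-/- cells, against 11.62 in Adam19+/+ cells, and differed by -1.85 in the direction of the labels. Its signal in Adam19-/- cells still lay above the floor of 8.01. The glial and neural crest gene Sox10 was at 10.50 in Adam19-/- cells, against 10.45 in Adam19+/+ cells. Sox10 was the 1 gene of 5 Schwann cell and glial markers that was higher. The list median was -0.11, with Erbb3 at -0.11, Fabp7 at -0.15 and Cdh19 at -0.14. All 5 lay above the floor, where 33.7% of genes were lower. The smooth muscle gene Acta2 was at 13.62 in Adam19-/- cells, against 13.74 in Adam19+/+ cells, so markers of neural crest derivatives were measured in both samples. The 3 measured Y-linked genes, Eif2s3y, Uty and Kdm5d, were lower in the Adam19-/- sample, at -1.62, -1.42 and -1.17. All 3 lay above the floor on the Adam19+/+ array only. The samples thus differed in Y-linked signal as well as in genotype, and the part of embryo sex in the other differences was not tested. Xist, the RNA that coats the inactive X chromosome, had 11.14 in Adam19-/- cells, against 11.25 in Adam19+/+ cells. Of the transcripts that are largely retained in the nucleus, all 6 measured were lower in the Adam19-/- sample, with a median of -0.25. Of all genes without a floor, 34.1% were lower. Xist is one of these 6, Snhg11 lay below the floor on both arrays, and Rian passed it on the Adam19+/+ array only. Meg3 differed by -0.64, Malat1 by -0.36, Airn by -0.22 and Rian by -0.21.

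Markers of other cell types were read beside the share of all genes without a floor, 51.7% higher and 34.1% lower. All 12 measured leukocyte markers were higher in the Adam19-/- sample, with a median of 0.35 and linear signals that summed to 2815 in Adam19-/- cells, against 2093 in Adam19+/+ cells. Only 4 of the 12 passed the floor on at least 1 array. All 4 were higher, beside 65.2% of all genes above the floor. Laptm5 differed by 0.68 and Cd68 by 0.05, and C1qb, at 0.65, and Fcer1g, at 0.56, passed the floor on the Adam19-/- array only. Their defining marker Ptprc lay below the floor, with 6.26 in Adam19-/- cells, against 6.05 in Adam19+/+ cells.

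Of 10 endothelial markers, of a cell type in which Id1, Id3 and Atoh8 are also expressed, 7 were higher, 2 lower and 1 equal. Their median was 0.22. Their linear signals summed to 3997 in Adam19-/- cells, against 3488 in Adam19+/+ cells, with Pecam1 and Cdh5 below the floor on both arrays. Nfatc1 differed by 0.49, Ramp2 by 0.30, Egfl7 by 0.23 and Kdr by 0.22. The 2 lower were Esam at -0.14 and Emcn, above the floor on the Adam19+/+ array only, at -0.09. Of 14 cardiomyocyte markers, 10 were higher, 3 lower and 1 equal, and their signals summed to 7879 in Adam19-/- cells, against 7358 in Adam19+/+ cells. Myl7 was at 0.78, Tnni1 at 0.30 and Pln at 0.54, and Myh6, above the floor on the Adam19-/- array only, at 0.39. The 3 lower cardiomyocyte markers were Tnnc1 at -0.22, Tnni3 at -0.03 and Tnnt2, the brightest of the list, at -0.10. Counting only genes above the floor, 5 of 7 endothelial and 7 of 11 cardiomyocyte markers were higher, beside 65.2% of all genes there. Smooth muscle markers were lower in 8 of 8 cases, with a median of -0.12, and Itga8 differed by -0.41, Lmod1 by -0.25, Tagln by -0.15 and Smtn by -0.13. The part of these cell types in the values of the Id genes, Atoh8 and Bambi was not tested.

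**Figure D4:**
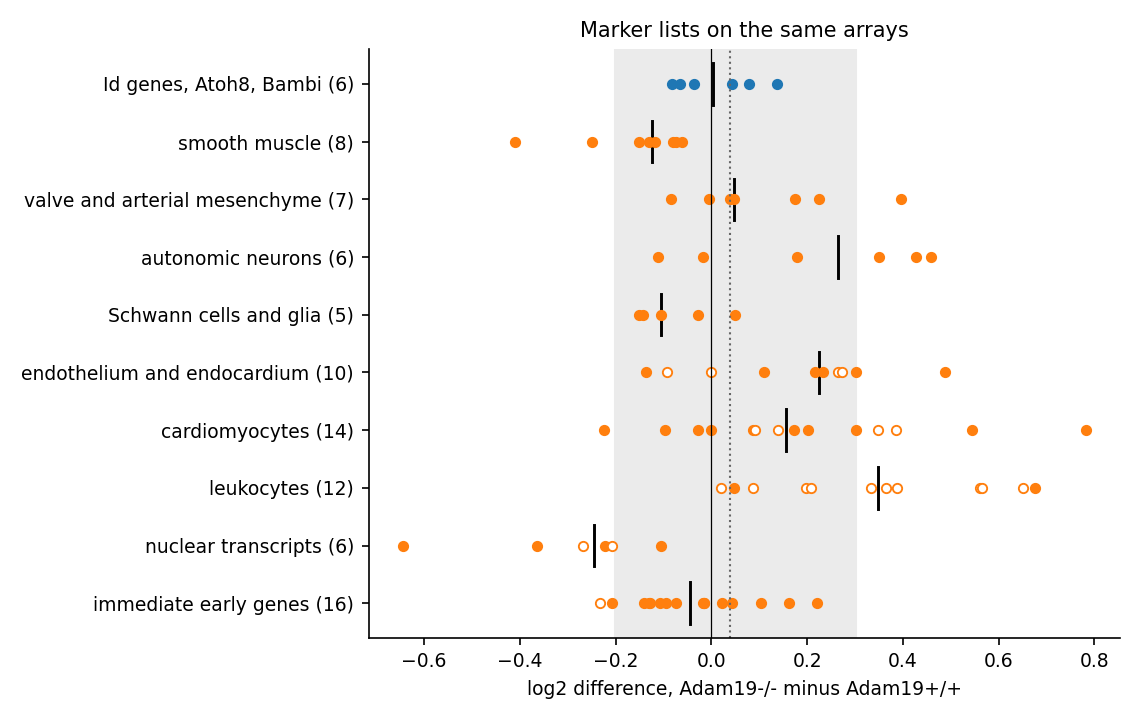
Log2 difference, Adam19-/- minus Adam19+/+ (horizontal axis), of marker lists on the same arrays, all measured genes, 1 point per gene (open where below the floor on at least 1 array), with the number of genes in brackets and list medians as black bars. The grey band is the central 95% of genes above the floor and the dotted line their median. Leukocyte markers have the highest median, 0.35, and the nuclear transcripts the lowest, -0.25, while that of the 6 members is 0.00.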

How the data were processed

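The values were log2 signals per transcript cluster of the Affymetrix Mouse Gene 1.0 ST array, deposited by the authors in 1 table of 28853 clusters. The log base was read from the values: as natural logarithms the highest would exceed the 65535 that a 16-bit scanner records. For background correction, normalisation and probe summary the sources used here give no method, and no further normalisation was applied. Gene names came from the 2016 platform annotation, updated by Entrez identifier to RefSeq symbols (GRCm38.p6), where 21698 of 21789 clusters with 1 symbol matched. The 1621 clusters with several symbols and the 5443 with none were not used. The array median was 7.52 for Adam19-/- and 7.49 for Adam19+/+ cells, and the arrays correlated across clusters with Pearson's r = 0.998. The number of arrays limits the precision.

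Differences are Adam19-/- minus Adam19+/+. The members and gene lists were chosen with earlier results of these data known. Named were Adam19, all 6 members, the 2 genes nearest to each in level, all genes of lists of up to 5, and otherwise the 4 with the largest difference in size, each above the floor. Hey1, Msx2, Smad7, Tbx2, Tbx3, Tbx20, Acta2, Stmn2, Prph, Pecam1, Cdh5 and Ptprc were named after their values were seen. So were Hey2, Msx1, Nog, Snhg11, Tnnt2, Tnnc1, Tnni3, Esam and Emcn. List genes without a value are not analysed here. Alternatives were quantile normalisation, centring on a lowess curve, adding 32 to the linear signal, the mean of clusters per gene, and another or no floor. Recovery of planted differences was checked on simulated data for the deposited values, quantile normalisation and centring only. The planted differences were far larger than those of the 6 members, so this check says nothing on differences of their size. The software was Python 3.11.15 with statsmodels 0.14.6, pandas 2.3.3, numpy 2.4.6 and matplotlib 3.10.9.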

Additional observations from a re-analysis of the deposited data

How the results depend on the processing

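No paired analysis was possible because each genotype had 1 array, and no replicate could be left out. Of the 6 alternatives, only quantile normalisation, centring on a lowess curve and the addition to the linear signal could alter a member's value. All 6 members kept their signs under these, and none reached 1.5-fold. Each member had 1 cluster, so the mean of clusters returned the same value. Another or no floor only decides which genes are kept, so these settings say nothing on the signs. Atoh8 lay under the floor at the 75th percentile and had no value there. Id1 ranged from 0.06 to 0.08, Id2 from -0.07 to -0.04, Id3 from 0.03 to 0.04, Id4 from -0.12 to -0.08, Atoh8 from -0.08 to -0.03 and Bambi from 0.11 to 0.14. The median of the 6 was -0.01 after quantile normalisation and after centring on a lowess curve, and 0.04 with the floor at the 75th percentile, which left 5 of them. Of the genes above the floor, 15 were 1.5-fold higher and 9 lower and 4 were 2-fold lower. With the floor at the 75th percentile, which left 5134 genes, 4 were 1.5-fold higher, 3 were 1.5-fold lower and 1 was 2-fold lower. With no floor 31 were 1.5-fold higher. With 1 array per genotype, differences of the size of those of the 6 members cannot be told from variation between samples.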

Other observations

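Other basic helix-loop-helix genes, of which only some encode proteins that may share E proteins with Id proteins, differed in both directions. Of 14 measured, 7 were higher and 7 lower in Adam19-/- cells, with a median difference of 0.02. Over all genes, with no floor, 51.7% were higher and 34.1% lower. Besides Hand1, the differences of greatest size were those of Tcf21 at 0.57, Mycn at 0.48 and Scx, a factor of tendon and valve, at 0.42. At the other end of the list were Hey2 at -0.22 and Hey1 at -0.18. Raising the floor to the 75th percentile left 6 of these genes. Of those, 4 were lower and 2 higher, and their median was -0.13. Genes that respond to TGF-beta were higher in 4 and lower in 5 of 9 measured cases and had a median of -0.03, with Tgfbi at 0.37, Tgif1 at 0.19, Tagln at -0.15 and Ltbp2 at -0.34. Immediate early genes, which tissue dissociation can induce, were higher in 5 and lower in 11 of 16 measured cases and had a median of -0.05, with Ier2 at 0.22, Jund at 0.16, Myc at -0.14 and Egr2 at -0.21. Of the cell cycle inhibitors above the floor, Cdkn1c differed by 0.11, Cdkn1b by 0.04 and Cdkn2c by -0.09.

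Among the remaining marker lists, 4 of 6 measured autonomic neuron genes were higher, a share near the 65.2% of all genes above the floor. Th and Dbh, enzymes of catecholamine synthesis, were at 0.46 and 0.43, and Gata3 and Phox2a at 0.35 and 0.18, while the neuronal genes Stmn2 and Prph were at -0.02 and -0.11. Valve and arterial mesenchyme genes had a median of 0.05, with Twist1 at 0.40, Pdgfra at 0.22, Lum at 0.17 and Postn at -0.08. Of erythroid genes, 2 lay above the floor, the embryonic globins Hba-x at 0.36 and Hbb-y at 0.29. Of 8 epicardial genes measured 3 were higher, 3 lower and 2 equal, beside 51.7% of all genes higher with no floor. The epicardial genes above the floor were Tbx18 at 0.21, Aldh1a2 at 0.20, Krt8 at -0.09 and Krt18 at -0.23.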
